A study of Mus musculus with 14 samples.

Results

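The 10 immediate early genes described here were Fos, Fosb, Jun, Junb, Egr1, Egr2, Egr3, Atf3, Nr4a1 and Ier2. They were taken by symbol from the 54532 genes of the count table, each symbol matched 1 row, and all 10 passed the filter on low counts that left 16034 genes for testing. RNA came from heart tissue of 14 male wild-type C57BL/6J mice, 1 library per mouse. Control_1d (n = 3) and Control_6w (n = 4) were not irradiated, while IRR_1d (n = 3) and IRR_6w (n = 4) had been exposed at 8 weeks of age, under pentobarbital anaesthesia, to 30 Gy of γ-rays on the anterior chest with the rest of the body behind lead. Hearts were taken 1 day or 6 weeks later. Whether the controls were anaesthetised or sham-treated, and how long a heart waited before its RNA was extracted, were not given in the sources used here. The mice of the 6-week groups were also older at collection than those of the 1-day groups, so that time after irradiation, age and collection session cannot be told apart.

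Immediate early genes are transcribed within minutes of a stimulus from factors that the cell already holds, and their RNA decays soon afterwards. FOS and JUN proteins pair to form the AP-1 factor, the EGR proteins are zinc-finger factors, NR4A1 is an orphan nuclear receptor, and ATF3 is a stress-induced member of the ATF/CREB family. In the heart they respond to stretch, adrenergic drive, ischaemia and injury. They are also known to respond to the dissection and delay that precede RNA extraction.

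Several of these genes carry in their promoters a cAMP response element, the sequence bound by CREB and ATF proteins, and the promoters of Atf3 and Fos, whose levels did not overlap between the irradiated groups (Atf3) or between the control groups (Fos) of the 2 time points, are printed to show it, with Jun for comparison. The RefSeq promoter table (GRCm38.p6) held 7 of the 10 genes, and Egr1, Egr3 and Ier2 were not in it. Capitals mark the CRE core TGACGT, read on either strand as TGACGT or ACGTCA, and in Jun the related octamer TGACATCA. Each promoter sequence is the 250 bases before the RefSeq start, written 5′ to 3′ on the strand of the gene.
Atf3 (chr1:191183334-191183583, minus strand): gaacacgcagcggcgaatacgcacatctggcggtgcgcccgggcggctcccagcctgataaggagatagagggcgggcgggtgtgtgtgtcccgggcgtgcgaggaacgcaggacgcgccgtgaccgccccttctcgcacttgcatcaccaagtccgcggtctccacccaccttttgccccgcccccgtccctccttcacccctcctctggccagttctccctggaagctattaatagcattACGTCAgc
Fos (chr12:85473640-85473889, plus strand): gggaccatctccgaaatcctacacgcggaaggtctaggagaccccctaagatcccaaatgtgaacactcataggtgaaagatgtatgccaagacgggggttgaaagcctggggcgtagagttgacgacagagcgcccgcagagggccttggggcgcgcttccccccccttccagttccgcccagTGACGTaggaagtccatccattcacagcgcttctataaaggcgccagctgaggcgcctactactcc
Jun (chr4:95052223-95052472, minus strand): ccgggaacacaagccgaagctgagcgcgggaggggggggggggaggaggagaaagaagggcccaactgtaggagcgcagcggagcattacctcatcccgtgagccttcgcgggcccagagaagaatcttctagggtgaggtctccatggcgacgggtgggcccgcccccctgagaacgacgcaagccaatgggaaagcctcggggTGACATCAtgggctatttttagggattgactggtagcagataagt
For Egr2, which has 5 RefSeq starts with the core upstream of 3 of them, 30 bases around the core are given.
Egr2 (chr10:67537801-67537830, plus strand): atatgggcagcgACGTCAcgggtattgaag

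The CRE core was found before a start of 3 of these 7 genes, Atf3, Egr2 and Fos, and 6.47% of all 32851 windows of the same length held it. In Fos it lay at positions -66 to -61 from the start. In Atf3 it lay at -8 to -3, and the last 7 bases of the printed window belong to an exon in the GENCODE annotation, which places a start slightly further upstream. The annotated Atf3 gene also reaches much further upstream, to chr1:191218039, so the printed window does not lie before its outermost start. The shorter core TGACG, which the longer one contains, was found in 6 of the 7 genes, Jun being the exception, against 17.8% of all windows. For every motif a gene was counted if any of its starts matched, and Egr2 had 5 starts. The shares are of single windows, so the 2 measures are not alike. The full palindrome TGACGTCA was in none of the 7 (1.55% of all windows), and neither was the AP-1 motif TGANTCA (6.75%) nor the NR4A motif AAAGGTCA (1.34%). The octamer TGACATCA was found in Jun alone (2.93%), at positions -45 to -38. The EGR motif GCGNGGGCG was found in Fosb and Nr4a1 (4.7%). The serum response element, or CArG box, was found in Egr2 (1.47%), and the letters TATAA in Egr2 and Fos (22.8%). Sites further upstream than these windows were not searched, so a motif not found here may still lie near a gene. These matches describe the letters in the windows and say nothing of binding in these hearts.

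Counts per library ranged from 13336746 to 16837265, and TMM factors, which scale the library totals, ran from 0.727 to 1.25. The heart muscle markers Myh6, Tnnt2, Tnni3, Actc1, Myl2, Myl3, Ryr2 and Pln were present in every library. Their sum ran from 4840 to 42900 CPM (counts scaled to the library total), and 3 libraries held the most RNA of neighbouring tissues. Control_6w replicate 3 had the lowest heart muscle sum and 2961 CPM of T cell and thymus markers, against 29.1 or less in the 4 IRR_6w libraries. IRR_6w replicate 1 had 7892 CPM of heart muscle markers with 1892 of white fat, 2838 of atrium and 419.8 of lung epithelium. IRR_1d replicate 3 had 15920 CPM of heart muscle markers with 1942 of atrium and 1659 of smooth muscle. Control_1d replicate 2 held atrial RNA too, with 535 CPM of atrium markers against 18.1 and 31.8 CPM in the other 2 Control_1d hearts, and it was kept where those 3 libraries were left out together. In another 4 libraries many genes of low abundance stood at 0 counts, with the share of genes usually at 2 to 5 CPM that were at 0 reaching 39.7% in Control_1d replicate 1, 30.2% in IRR_6w replicate 3, 14.8% in IRR_6w replicate 4 and 8.15% in Control_6w replicate 1, against 4.45% or less elsewhere. Fewer cells of a type and less RNA per cell cannot be told apart in such bulk samples.

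Jun was the most abundant of the 10 genes when counts were divided by gene length, with a median over the 14 hearts of 20.4 FPKM (counts scaled to gene length and library total). It was followed by Ier2 at 15.2, Egr1 at 8.63, Junb at 8.19, Atf3 at 5.78, Fos at 5.31 and Nr4a1 at 5.01 FPKM. Egr3 at 1.14, Egr2 at 0.555 and Fosb at 0.321 FPKM formed the lower end. Every pair of neighbours in this order had overlapping ranges over the hearts. Within a heart the order held most firmly between Nr4a1 and Egr3, where Nr4a1 was higher in 14 of 14 hearts, and was closest to even between Egr1 and Junb, where Egr1 was higher in 6 of 14, and between Fos and Nr4a1, where Fos was higher in 6 of 14.

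**Figure D1:**
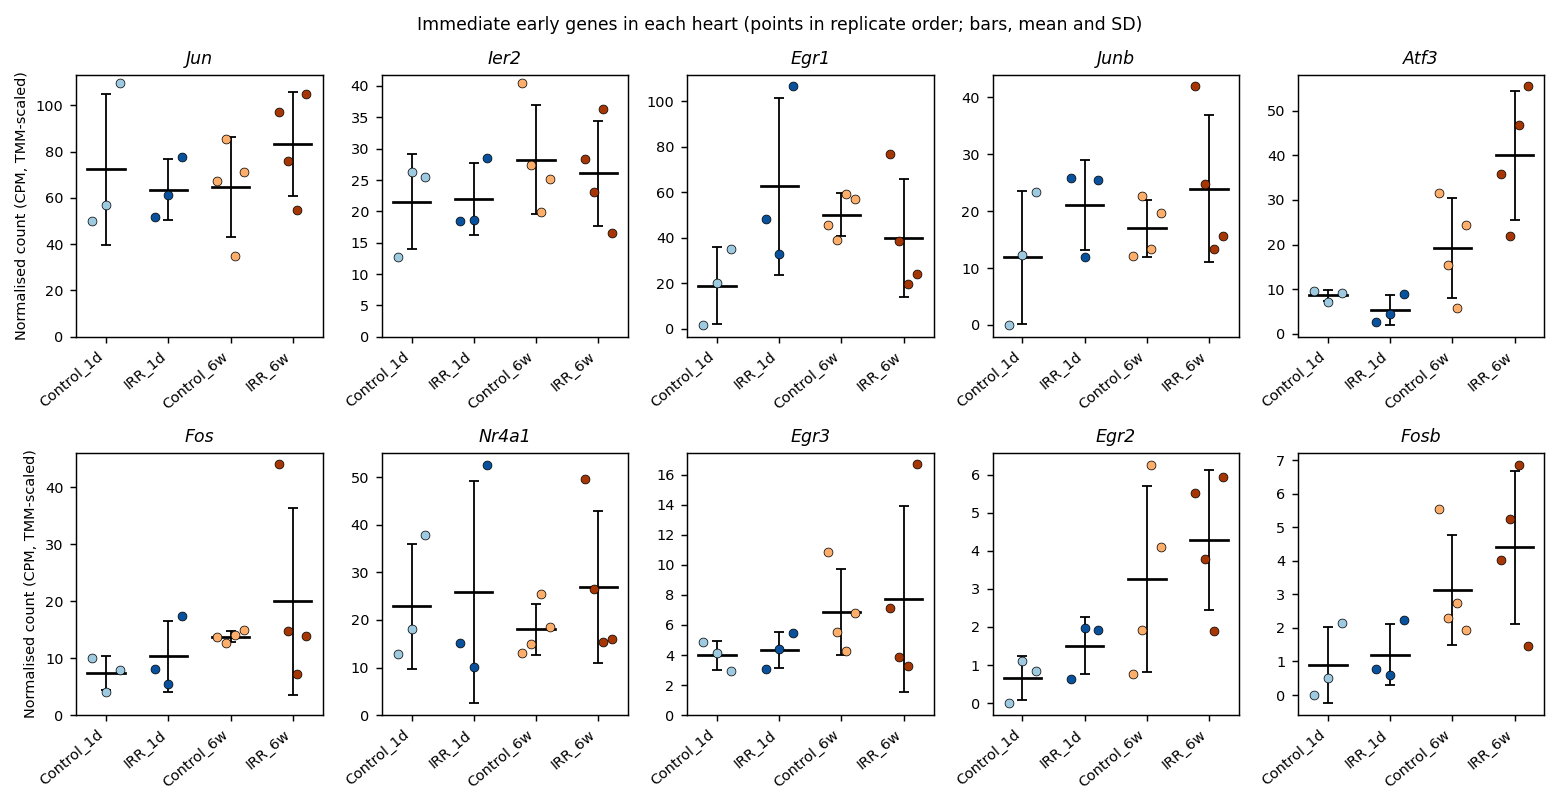
Normalised count of each of the 10 immediate early genes in each of the 14 hearts, in CPM scaled by TMM on linear axes, 1 panel per gene in order of median FPKM. Points are hearts in replicate order, horizontal bars are group means and vertical bars are SD. Atf3 lies at 2.57 to 9.58 CPM in the 1-day hearts and at 21.9 to 55.4 CPM in IRR_6w, while the irradiated and control hearts of each time point overlap for all 10 genes.

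All levels that follow are CPM scaled by TMM, and all fold changes come from the edgeR quasi-likelihood test over the 4 groups, with p-values adjusted by the Benjamini-Hochberg method over the 16034 genes. A gene was called a differentially expressed gene (DEG) at an adjusted p under 0.05 with a fold change above 2 or below 0.5.

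One day after irradiation none of the immediate early genes was a DEG. The question of this comparison was the acute response to 30 Gy, and edgeR called 0.0249% of all tested genes, 0 of the 10 immediate early genes. At an unadjusted p under 0.05 with the same fold limits, 1 of the 10 passed, against 2.23% of all genes, and DESeq2 and limma-voom called 0. The fitted change was above 0 for 8 of the 10 (55.1% of all tested genes), with a median log2 fold change of 0.31, against 0.06 for all genes. This tally depended on single libraries. Without Control_1d replicate 1, Fosb (-0.14), Nr4a1 (-0.11) and Ier2 (-0.24) turned below 0. Without IRR_1d replicate 3, Fos, Fosb, Egr3, Nr4a1 and Ier2 turned below 0, and Junb, Egr1 and Egr2 alone stayed above it. The same genes turned when the 3 libraries with the most RNA of neighbouring tissues were left out together. For none of the 10 did the 3 irradiated hearts lie apart from the 3 controls, which was the case for 10.7% of all genes. With 3 hearts against 3 the exact permutation test on single genes could not give a p below 0.1.

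Egr1, the zinc-finger factor induced by serum, stretch and injury, was the gene that passed the unadjusted limit. Its level was 1.69, 20.1 and 35.2 CPM in the Control_1d hearts and 48.3, 32.9 and 107 CPM in the IRR_1d hearts. The irradiated hearts were mostly higher, but the lowest of them lay below the highest control. The log2 fold change was 1.72 (SE 0.763, 95% interval 0.09 to 3.36, unadjusted p = 0.0399, edgeR adjusted p = 1, exact permutation p = 0.2). The extremes were the library with many low genes at 0, Control_1d replicate 1, and the library with atrial and smooth muscle RNA, IRR_1d replicate 3. Without the former the log2 fold change was 1.18 and without the latter 1.10, while without Control_1d replicate 3 it was 2.56.

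Single libraries also moved the values of Junb and Nr4a1 at 1 day. Junb, a JUN relative that partners FOS proteins, had 0 counts in Control_1d replicate 1, then 12.3 and 23.3 CPM in the other 2 controls, and 25.8, 12 and 25.5 CPM in IRR_1d. The 2 irradiated hearts at the top stood just above the highest control, and the third below both controls with counts. Its log2 fold change was 0.83 (SE 0.994, edgeR adjusted p = 1), and it was 0.25 without Control_1d replicate 1 and 1.83 without Control_1d replicate 3. Nr4a1, the nuclear receptor, had 12.8, 18.2 and 37.8 CPM in the controls and 15.1, 10.03 and 52.7 CPM in IRR_1d. Both its highest and its lowest value over the 14 hearts fell in IRR_1d, and its log2 fold change was 0.18 (SE 0.608). Without IRR_1d replicate 3 the Nr4a1 difference turned to -0.86.

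Atf3, induced by many kinds of stress and by p53, did not pass the test at 1 day. The controls had 9.58, 7.24 and 9.08 CPM and the irradiated hearts 2.57, 4.37 and 8.97 CPM. Of the IRR_1d hearts 2 were below every control and the third lay among them. The log2 fold change was -0.70 (SE 0.563, interval -1.91 to 0.50, edgeR adjusted p = 1, exact permutation p = 0.2). It was -1.31 without IRR_1d replicate 3 and -0.36 without IRR_1d replicate 1. Fos had 10.02, 4.12 and 7.85 CPM in the controls and 8.11, 5.40 and 17.4 CPM in IRR_1d, so that 1 irradiated heart was above all controls. Its log2 fold change was 0.49 (SE 0.591).

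The remaining 5 genes did not pass the test at 1 day either. Jun, the AP-1 partner of FOS, ranged from 50.2 to 109.5 CPM in the controls and from 51.8 to 77.6 CPM in IRR_1d, with a log2 fold change of -0.19 (interval -0.99 to 0.62). Ier2, a small nuclear immediate early protein, ranged from 12.8 to 26.3 and from 18.5 to 28.6 CPM, with a log2 fold change of 0.03 (interval -0.77 to 0.82). For these 2 genes the interval excluded a change beyond 2-fold in either direction, which was not so for the others. Egr3 was at 2.92 to 4.88 and 3.09 to 5.48 CPM. Fosb and Egr2 were near the limit of the depth, with 0 to 28 counts of Fosb and 0 to 11 counts of Egr2 in the Control_1d libraries, against 7 to 34 and 10 to 29 counts in IRR_1d. The log2 fold change of Egr2 was 1.22 (SE 1.11, interval -1.16 to 3.60), and it was 0.63 without Control_1d replicate 1. A count of 0 allows up to 3 counts by counting error alone, a limit that is too low for Control_1d replicate 1.

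**Figure D2:**
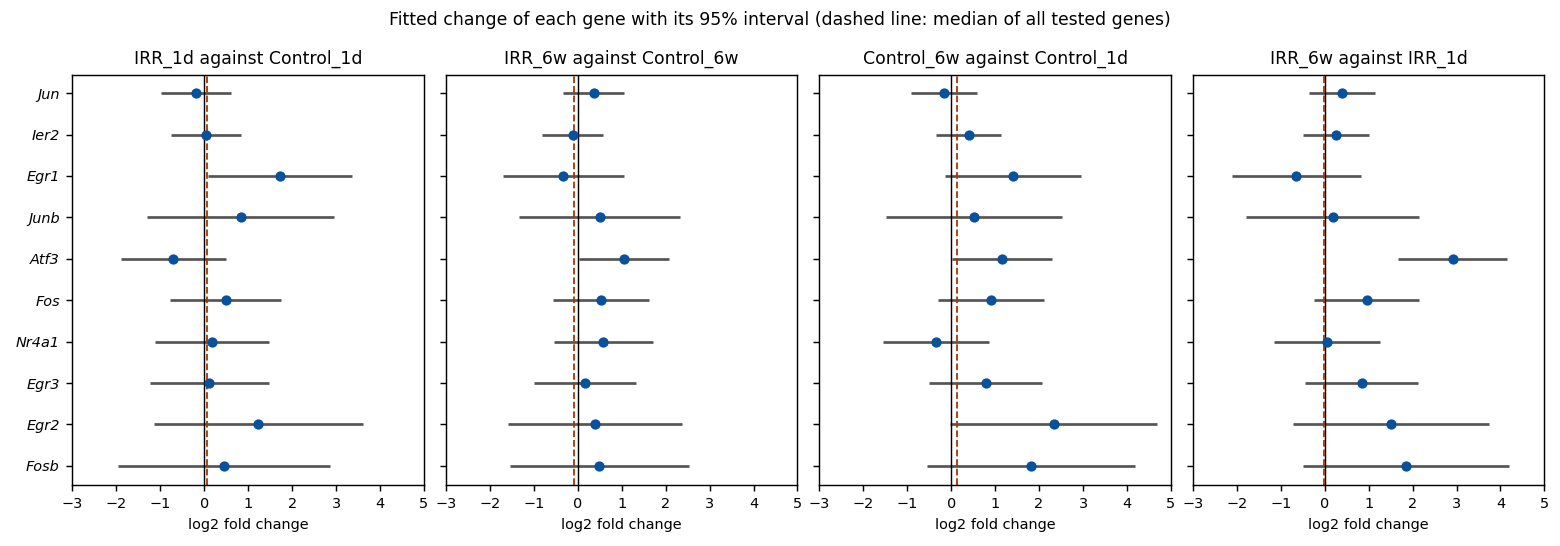
Fitted log2 fold change (horizontal axis) of each immediate early gene in 4 comparisons, 1 panel each, with points for the edgeR estimate, lines for its 95% interval and a dashed line at the median of all 16034 tested genes. The Atf3 interval from IRR_1d to IRR_6w, 1.68 to 4.14, stands clear of 0, and most other intervals cross it.

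At 6 weeks after irradiation, again none of the 10 genes was a DEG. The comparison addressed the late response to the same dose, and edgeR called 0.256% of all tested genes, 0 of the 10. At the unadjusted limit 1 of the 10 passed, against 5.43% of all genes, and DESeq2 and limma-voom called 0. The change was above 0 for 8 of the 10, against 43.8% of all genes, with a median log2 fold change of 0.44, against -0.09 for all genes. With the 3 libraries with the most RNA of neighbouring tissues left out together, Fos (-0.20) and Junb (-0.017) turned below 0. Without IRR_6w replicate 4, Egr3 turned to -0.53 and Ier2 to 0.05. Library totals, used instead of TMM, raised the median of all genes in this comparison by 0.23, and Ier2 then turned from below to above 0. None of the 10 had 4 irradiated hearts apart from 4 controls (5.72% of all genes).

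Atf3 was the gene that passed the unadjusted limit at 6 weeks. It was at 31.6, 15.4, 5.69 and 24.4 CPM in Control_6w and at 35.8, 21.9, 46.7 and 55.4 CPM in IRR_6w. Of the irradiated hearts 3 lay above every control, and replicate 2 fell among them. Those 3 were the IRR_6w libraries that stood apart, replicate 1 with RNA of other tissues and replicates 3 and 4 with many low genes at 0, and the part of this in the Atf3 level was not tested. The log2 fold change was 1.05 (SE 0.481, interval 0.02 to 2.08, unadjusted p = 0.0456, edgeR adjusted p = 0.551, exact permutation p = 0.0857 where 0.0286 was the smallest possible). The lowest control was the library with thymus RNA, Control_6w replicate 3, and without it the log2 fold change was 0.75 (edgeR adjusted p = 0.533). The summed macrophage markers Adgre1, Csf1r, Cd68, C1qa and Lyz2 moved in the same direction, at 908 to 1140 CPM in IRR_6w against 185 to 535 CPM in Control_6w. So did the summed fibroblast markers, at 2170 to 3100 CPM against 852 to 2040 CPM. Of these markers the collagens Col1a1, Col1a2 and Col3a1 did not overlap between the groups. Dcn did, at 858 to 1170 against 471 to 1270 CPM. Pdgfra went the other way, at 43.3 to 60.9 CPM, below every control except the library with thymus RNA at 29.2 CPM. The part of macrophages and fibroblasts in the Atf3 difference was not tested.

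Among the FOS and JUN genes at 6 weeks, Fos and Junb had their highest values in the same heart. Fos was at 13.7, 12.6, 13.99 and 14.9 CPM in Control_6w, the tightest group of all, with a coefficient of variation of 6.77%. It was at 44.0, 14.7, 7.24 and 13.9 CPM in IRR_6w. Only replicate 1 stood far above the controls, and its log2 fold change of 0.53 (SE 0.508) became -0.21 without that heart. Junb was at 12.2, 22.7, 13.3 and 19.7 CPM in Control_6w and at 41.9, 24.8, 13.4 and 15.7 CPM in IRR_6w, with 2 hearts above all controls and 2 among them. Its log2 fold change was 0.50 (SE 0.854), and 0.084 without replicate 1. The heart at the top in both, IRR_6w replicate 1, had the highest sums of white fat, atrial and lung markers of all 14 libraries. It also had the most blood RNA, with erythroid markers at 62880 CPM against 2389 to 11810 CPM in the other IRR_6w hearts, and the part of this RNA in these levels was not tested.

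Jun at 6 weeks was at 67.2, 85.6, 34.8 and 71.3 CPM in the controls and at 97.0, 76.0, 54.8 and 104.8 CPM in the irradiated hearts. The groups overlapped, and the log2 fold change was 0.36 (SE 0.325, interval -0.33 to 1.06). Fosb was at 5.55, 2.29, 2.73 and 1.95 CPM in Control_6w and at 4.02, 5.23, 6.86 and 1.47 CPM in IRR_6w, with its highest and its lowest value both in IRR_6w (log2 fold change 0.49, SE 0.953). Ier2 ranged from 19.97 to 40.4 and from 16.5 to 36.3 CPM, with a log2 fold change of -0.11 (interval -0.80 to 0.57), which excluded a 2-fold change.

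The EGR genes and Nr4a1 did not separate the groups at 6 weeks either. Egr1 was at 45.5, 39.1, 59.2 and 57.0 CPM in Control_6w and at 77.0, 38.7, 19.9 and 24.3 CPM in IRR_6w. The irradiated hearts lay both above and below the controls, and the log2 fold change was -0.33 (SE 0.641, edgeR adjusted p = 0.918). It was -0.86 without IRR_6w replicate 1 and -0.11 without IRR_6w replicate 3. Egr2, a factor known from hindbrain and Schwann cell development, ranged from 0.76 to 6.26 CPM and from 1.91 to 5.93 CPM. Egr3 had 16.7 CPM in IRR_6w replicate 4 and 3.24 to 7.12 CPM in the other 3 irradiated hearts, against 4.27 to 10.9 CPM in the controls. Its fitted log2 fold change was 0.17 and that without this heart -0.53. Nr4a1 was at 49.7 CPM in IRR_6w replicate 1 and at 26.6, 15.4 and 16.1 CPM in the others, against 13.1 to 25.4 CPM in the controls. Its log2 fold change was 0.58 (SE 0.528), and 0.10 without replicate 1.

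The irradiation effect itself was not shown to differ between 1 day and 6 weeks for any of the 10 genes. The test of the difference (effect at 6 weeks minus effect at 1 day) called 0% of all genes by edgeR and 0 of the 10, with 1 of the 10 past the unadjusted limit against 2.86% of all genes, and 0 called by DESeq2 and limma-voom. The change was above 0 for 6 of the 10, against 41.4% of all genes. The gene past the limit was Atf3, whose effect moved by 1.75 on the log2 scale (SE 0.741, interval 0.17 to 3.34, edgeR adjusted p = 0.99). The effect on Egr1 moved in the other direction, by -2.05 (SE 0.991, interval -4.17 to 0.07, edgeR adjusted p = 0.99).

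Between the irradiated groups, Atf3 stood apart at 6 weeks from 1 day, and the tools differed on whether it was a DEG. In IRR_1d it was at 2.57, 4.37 and 8.97 CPM and in IRR_6w at 35.8, 21.9, 46.7 and 55.4 CPM. The groups did not overlap, which was so for 9.31% of all genes and for 1 of the 10. The log2 fold change was 2.91 (SE 0.577, interval 1.68 to 4.14, edgeR adjusted p = 0.115, exact permutation p = 0.0571, the smallest that 3 against 4 hearts allow), and Atf3 ranked 23rd of 16034 genes by p. In counts, the 3 IRR_1d libraries held 40, 51 and 136 and the 4 IRR_6w libraries 623, 364, 736 and 1168. DESeq2 on the same counts called it, with a DESeq2 adjusted p of 6.13e-05 in the model of 4 groups, and edgeR did so without the low-count filter (edgeR adjusted p = 0.0137) and without Control_6w replicate 3 (edgeR adjusted p = 0.0209), while limma-voom did not (limma adjusted p = 0.438). The summed macrophage markers did not overlap between these groups either, at 467 to 615 CPM in IRR_1d against 908 to 1140 CPM in IRR_6w. Singly, Lyz2 and Csf1r separated the groups, while Adgre1, C1qa and Cd68 overlapped. Cd68 was at 18.6 to 30.7 against 12.5 to 28.6 CPM. The summed endothelial markers did not overlap either, at 1090 to 1190 against 1310 to 1640 CPM. Of these Pecam1 alone separated the groups, and Tie1 was at 116 to 148 against 98.1 to 133 CPM. The summed T cell and thymus markers were apart too, at 0.528 to 1.29 against 7.82 to 29.1 CPM. Those of lung epithelium were at 0.0643 CPM or less in IRR_1d against 0.949 to 419.8 CPM. The median heart muscle sum was 28200 CPM against 15400 CPM. Their part in the Atf3 difference was not tested.

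Over the 10 genes the comparison of IRR_6w with IRR_1d held 0 DEGs by edgeR, against 0.0374% of all tested genes, and 1 at the unadjusted limit, against 3.85%. The fitted change was above 0 for 9 of the 10 (48.5% of all genes), the exception being Egr1 at -0.65, and the median log2 fold change was 0.62 against -0.02 for all genes. The same change of scaling raised the median of all genes in this comparison by 0.32. Fosb followed Atf3 in size with a log2 fold change of 1.86 (SE 1.09), its level being 0.772, 0.5999 and 2.24 CPM in IRR_1d. Of the IRR_6w hearts 3 lay above these and the fourth, at 1.47 CPM, among them. Egr2 had a log2 fold change of 1.503 (SE 1.04) and Fos one of 0.95 (SE 0.561), both with overlapping groups. The Fos value was 0.21 without IRR_6w replicate 1 and 1.56 without IRR_1d replicate 3.

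Between the controls, the fitted changes from 1 day to 6 weeks were also mostly above 0. In Control_6w against Control_1d, edgeR called 0% of all genes and 0 of the 10, with 1 of the 10 at the unadjusted limit against 3.75% of all genes, while DESeq2 and limma-voom called 0 of the 10. The change was above 0 for 8 of the 10, against 59.1% of all genes, with a median log2 fold change of 0.85 against 0.12. Atf3 was at 7.24 to 9.58 CPM in Control_1d and at 5.69 to 31.6 CPM in Control_6w, a log2 fold change of 1.16 (SE 0.534, unadjusted p = 0.0478, edgeR adjusted p = 0.902). The 2 groups overlapped through Control_6w replicate 3 alone. The comparisons of 6 weeks with 1 day share their hearts with the irradiation comparisons and are not independent of them.

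Fos and Egr1 were the 2 of the 10 genes whose control groups did not overlap between the time points, against 5.92% of all genes. Fos was at 4.12 to 10.02 CPM in Control_1d and at 12.6 to 14.9 CPM in Control_6w, or 0.91 higher on the log2 scale (SE 0.563, edgeR adjusted p = 0.902, exact permutation p = 0.0571). Egr1 was at 1.69 to 35.2 CPM and at 39.1 to 59.2 CPM, or 1.40 higher on the log2 scale (SE 0.723, edgeR adjusted p = 0.902, exact permutation p = 0.0571). Without Control_1d replicate 1 the Egr1 value was 0.86. Egr2 had a log2 fold change of 2.33 (SE 1.10, interval -0.02 to 4.69), resting on 0, 11 and 11 counts in Control_1d against 10, 25, 110 and 61 in Control_6w, where the 110 belonged to the library with thymus RNA. Neither Jun (-0.16) nor Nr4a1 (-0.35) was higher at 6 weeks in the controls.

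Lists of related genes were set beside the 10. Of 38 other immediate early genes, 36 were tested and edgeR called 0 in any of the comparisons. Its median log2 fold change was 0.17 for IRR_1d and 0.45 for IRR_6w, each against its own controls. From IRR_1d to IRR_6w it was 0.46, and 10 of the 36 had an unadjusted p under 0.05 with a change above 0 and 0 with one below, against 4.2% and 1.59% of all genes. Summed over the 38, the level was 1404 to 1919 CPM in IRR_6w, above the 1104 to 1293 CPM of Control_6w and every 1-day heart (1317 CPM or less). Singly, 1 of the 36 separated IRR_6w from Control_6w, against 5.72% of all genes. Ctgf, which is in the sum, was at 131 to 581 CPM in IRR_6w and 74.3 to 134 CPM in Control_6w. The macrophage and fibroblast sums given above, the latter through its collagens alone, separated the same IRR_6w and Control_6w hearts. Their part in the difference of the sums over the 38 was not tested. Nr4a3, a relative of Nr4a1, was at 1.61 to 5.15 CPM in IRR_1d, below the 5.92 to 14.4 CPM of its controls, and at 11.1 to 24.1 CPM in IRR_6w against 7.05 to 12.4 CPM. Its lowest group was thus IRR_1d, as for Atf3. Its log2 fold change was -1.71 at 1 day (SE 0.498, edgeR adjusted p = 1) and 2.62 from IRR_1d to IRR_6w (SE 0.495, edgeR adjusted p = 0.0789). Fosl2, which encodes the FOS relative FRA-2, stood at 1.15 on the log2 scale at 6 weeks (SE 0.322, edgeR adjusted p = 0.179), and Ctgf, a matricellular gene, one of 1.68 (SE 0.561, edgeR adjusted p = 0.323).

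Of the 16 genes for partners of FOS and JUN and relatives of ATF3, edgeR called 0 in any comparison. At an unadjusted p under 0.05, 1 of them, Crem, had a change below 0 at 1 day (-1.02, SE 0.456). At 6 weeks Maf, a large AP-1 relative, was at 27.7 to 37.8 CPM in Control_6w and 49.5 to 73.9 CPM in IRR_6w (log2 fold change 0.96, SE 0.217, edgeR adjusted p = 0.0901). Ddit3, the stress factor CHOP that pairs with ATF3, had a log2 fold change of 0.71 at 6 weeks (SE 0.441) and 1.33 from IRR_1d to IRR_6w (edgeR adjusted p = 0.734). Of the 21 kinases and factors upstream of these genes, such as the MAP kinases, SRF and the ELK factors, edgeR called 0, with 1 at an unadjusted p under 0.05 at 6 weeks, Rps6ka1 (0.81, SE 0.345). Their median log2 fold change was -0.0013 against 0.06 for all genes at 1 day and -0.08 against -0.09 at 6 weeks.

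The p53 targets, genes that the DNA damage response is known to induce, gave larger values. Their median log2 fold change over 16 genes was 1.92 at 1 day and 0.83 at 6 weeks, with 14 and 13 of the 16 above 0. Sesn2, a stress-induced regulator of mTORC1, was called at 1 day (log2 fold change 3.16, SE 0.428, edgeR adjusted p = 0.0235). Eda2r, a member of the TNF receptor family, and Zmat3, an RNA-binding p53 target, were called at 6 weeks with 3.48 (SE 0.542, edgeR adjusted p = 0.0188) and 2.10 (SE 0.351, edgeR adjusted p = 0.0252). The IRR_1d hearts, in which Atf3 was at 2.57 to 8.97 CPM, had Sesn2 at 30.5 to 46.6 CPM, against 2.13 to 7.31 CPM in their controls.

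Heat shock and circadian clock genes are known to respond to temperature, stress and time of day. Of the 12 and the 16 genes of these lists, edgeR called 1 each between the irradiated groups and 0 of either between the controls. The 12 heat shock genes summed to 2160 to 2260 CPM in IRR_1d and 3320 to 6150 CPM in IRR_6w, against 2680 to 3620 and 5510 to 6660 CPM in their controls. From IRR_1d to IRR_6w their median log2 fold change was 1.41, and 1 of them, the chaperone partner Dnaja1, was called (1.53, SE 0.239, edgeR adjusted p = 0.0389). Between the controls its value was 1.51 (SE 0.239, edgeR adjusted p = 0.134), and 12 of the 12 were above 0 with a median of 0.99. The 16 clock genes summed to 854 to 913 CPM in IRR_1d and 482 to 607 CPM in IRR_6w, against 621 to 745 and 379 to 580 CPM in their controls. Of them Nr1d2, which encodes the clock repressor REV-ERBβ, was the gene called between the irradiated groups (-1.55, SE 0.238, edgeR adjusted p = 0.0389), while 6 of the 16 were above 0 and 10 below in this comparison. Between the controls Nr1d2 was at -1.62 (SE 0.239, edgeR adjusted p = 0.127). The time of day of collection was not given in the sources used here. Between IRR_1d and IRR_6w these sums did not overlap, as Atf3 did not, and their part in the Atf3 difference was not tested.

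**Figure D3:**
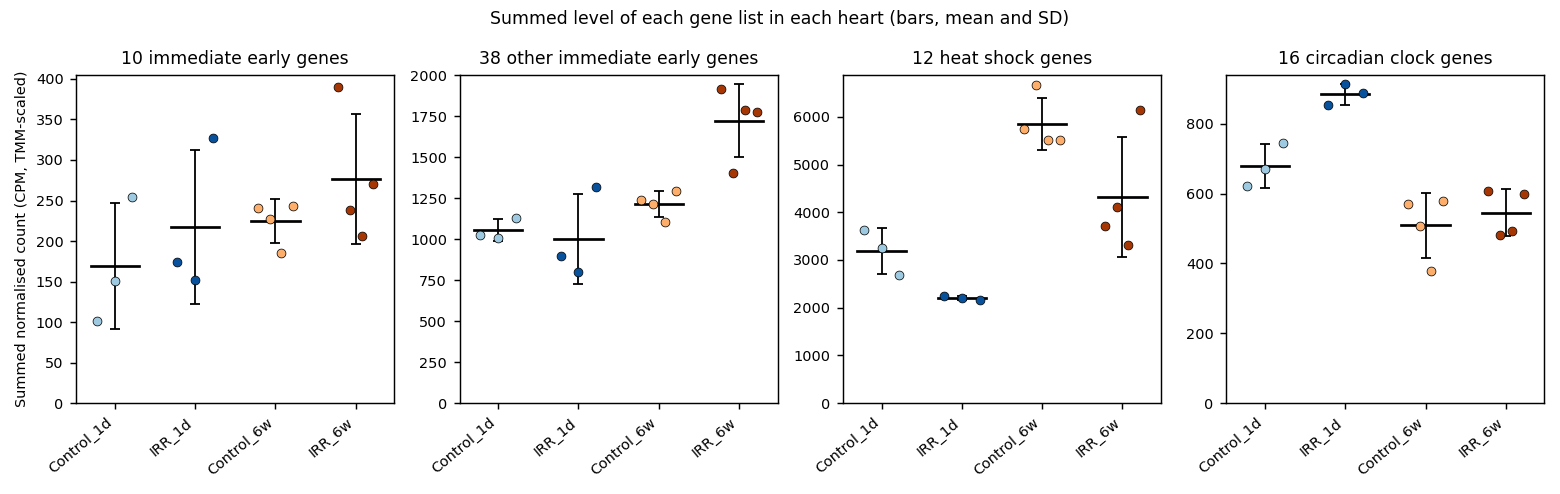
Summed CPM (scaled by TMM) of 4 gene lists in each heart: the 10 immediate early genes, 38 other immediate early genes, 12 heat shock genes and 16 circadian clock genes. Points are hearts, horizontal bars group means and vertical bars SD, on linear axes from 0. The sums of the 10 genes overlap between all groups. Those of the 38 other immediate early genes are higher in the 4 IRR_6w hearts (1404 to 1919) than in every other heart. Singly, 1 of the 36 tested genes of that list separated IRR_6w from Control_6w. The heat shock sums of Control_6w (5510 to 6660) lie above all 1-day hearts and the clock sums of IRR_1d (854 to 913) above all other hearts.

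Summed over the 10 genes, the level per heart ran from 102 CPM in Control_1d replicate 1 to 390.5 CPM in IRR_6w replicate 1, and the second highest was IRR_1d replicate 3 at 327 CPM. Control_1d replicate 1 was the lowest of 14 for 5 of the 10 genes, Fosb, Junb, Egr1, Egr2 and Ier2, and above the median of the 14 hearts for 1. IRR_6w replicate 1 was above the median for 10 of 10 and IRR_1d replicate 3 for 9 of 10. The highest value did not fall to 1 heart throughout. Fos and Junb were highest in IRR_6w replicate 1, Egr1 and Nr4a1 in IRR_1d replicate 3, Egr3 and Atf3 in IRR_6w replicate 4, Jun in Control_1d replicate 3, Ier2 in Control_6w replicate 1, Egr2 in Control_6w replicate 3 and Fosb in IRR_6w replicate 3. Of these hearts, those highest for Fos, Junb, Egr1, Nr4a1 and Egr2 were the 3 libraries with the most RNA of neighbouring tissues, and those highest for Egr3, Atf3, Fosb and Ier2 were libraries with many low genes at 0. The highest Jun value alone fell in a library without either mark, although that library had 33600 CPM of erythroid markers.

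The spread between hearts of a group differed from gene to gene. The biological coefficient of variation that edgeR estimated within groups was 0.349 for Ier2 and 0.351 for Jun, below the median of 0.473 over all tested genes, and 0.859 for Fosb, 0.837 for Junb and 0.827 for Egr2, which lay at the 74.8th, 73.6th and 72.9th percentile. Atf3 was near the median at 0.486.

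Across the 14 hearts, 44 of the 45 pairs of genes had a Pearson r above 0, with a median of 0.39 and a highest r of 0.92. Without Control_1d replicate 1 there were 39 above 0 with a median of 0.26, without the 2 farthest hearts 37 with a median of 0.28, and as deviations from group means 33 with a median of 0.29. After adjustment over the 45 pairs, 2 had a Pearson permutation p under 0.05, Junb with Egr1 (r = 0.92, permutation p = 0.00132, adjusted 0.0297, Spearman rho 0.61, permutation p = 0.0223, adjusted 0.246) and Fosb with Ier2 (r = 0.77, permutation p = 0.00101, adjusted 0.0297, rho 0.69, permutation p = 0.00874, adjusted 0.131). By Spearman's rho 0 of the 45 passed. Without the 2 hearts farthest from the median of the first gene, r was 0.49 for Junb with Egr1 and 0.76 for Fosb with Ier2. Without Control_1d replicate 1 the values were 0.59 and 0.63. The relation of Junb with Egr1 thus rested in part on that library, in which Junb had 0 counts and Egr1 27. Within groups, as deviations from the group means, r was 0.93 and 0.83. Sequencing batches were not given in the sources used here, so no value within a batch can be stated.

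Fos and Egr1 had an r of 0.40 and a rho of 0.74 (permutation p = 0.149 and 0.00336, adjusted 0.305 and 0.131), and Fos and Nr4a1 an r of 0.58 and a rho of 0.59 (permutation p = 0.0283 and 0.0298, adjusted 0.141 and 0.246). As a description, the genes outside the 10 whose pattern over the 14 hearts came nearest the mean standardised profile of the 10 were Cyr61 (Pearson r = 0.91), Anxa9 (0.89), Ninl (0.88), Prr5l (0.87) and Gprc5b (0.86). Cyr61, a matricellular immediate early gene, was among the 38 listed, and the other 4 were not.

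**Figure D4:**
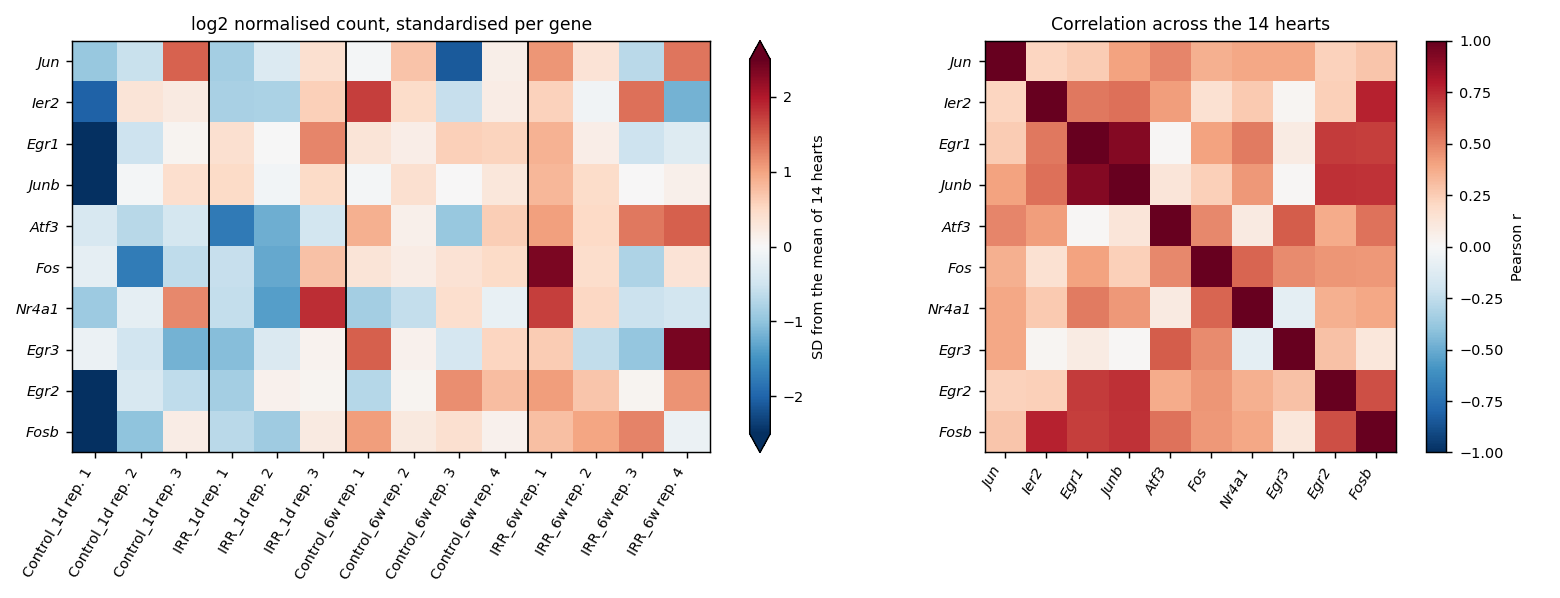
Left, the log2 normalised count of each gene in each of the 14 hearts, standardised per gene and shown from blue (below the gene's mean) to red (above), with vertical lines between groups and colours that saturate at the arrowed ends. Right, Pearson r between the genes across the 14 hearts. Control_1d replicate 1 is deep blue for Egr1, Junb, Egr2 and Fosb, and 44 of the 45 pairs have an r above 0.

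The 10 genes were read at their GRCm38 positions, and the length given in the count table matched the exon bases of GENCODE vM21 for each of them. Atf3 spans chr1:191170296-191218039 on the minus strand with 2154 exon bases, Fos spans chr12:85473890-85477273 on the plus strand with 2352, and Jun spans chr4:95049034-95052222 on the minus strand with 3189. Of the exon bases of Jun, 7.28% overlap its antisense gene Junos, and of those of Junb 7.52% overlap Prdx2 on the opposite strand. Since it was not stated whether the counting used strand, reads there cannot be told apart, while the other 8 genes share no exon base with another gene.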

How the data were processed

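RNA from heart tissue of 14 mice was sequenced as paired reads. The authors checked reads with FastQC 0.11.8, trimmed them with Trim Galore 0.6.1, used STAR 2.5.0a for alignment to the mm10 transcriptome and HTSeq for counts per gene, and the deposited counts are whole numbers for 54532 genes. Counting mode, strand and annotation release were not given in the sources used here. Of the identifiers, 54495 were in GENCODE vM21, 98.3% of them at the same coordinates.

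R 4.3.3 and edgeR 4.0.16 were used to test the counts (filterByExpr, TMM, estimateDisp, glmQLFit and glmQLFTest, two-sided) on all 14 libraries in a model of 4 groups. DESeq2 1.42.0, the tool of the study, and limma 3.58.1 were alternatives, beside other scaling, no filter, subsets of libraries and the replicate number as a block. CPM used TMM-scaled totals, and FPKM used library totals and the deposited gene lengths. Single genes were compared by two-sided exact permutation tests on log2 CPM with a prior count of 2, and correlations by 100000 permutations. Intervals are at 95%. By counting error alone a count of 0 allows 3, and the p-values measure the spread between mice.

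Replicate numbers did not pair the mice. No 2 libraries of a group agreed within sampling noise. The functions were tested on simulated data. All 10 genes are named, as are from each of the 6 related lists every DEG and the 3 genes with the smallest p in each irradiation comparison, and the 5 genes most like the mean profile, except for 1 result that is not reported here. Members and lists were chosen with earlier results of these data known.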

Additional observations from a re-analysis of the deposited data

How the results depend on the processing

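Of 1130 combinations of a gene and an alternative, 1059 kept direction and side of the threshold, 66 changed sign, none of these at a called value, and 5, all of Atf3 from IRR_1d to IRR_6w, passed the threshold. The causes were not tested.

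The number of the 10 genes called stayed at 0 except as follows. With an unadjusted p it was 1 in each of the 5 comparisons. For IRR_6w against IRR_1d it was 1, Atf3, without a low-count filter, with DESeq2 on all libraries or on the 2 groups, and with the 3 libraries holding other tissues left out together, where the Atf3 log2 fold change was 3.58 (edgeR adjusted p = 0.0101). Over the alternatives the adjusted p of Atf3 ran from 3.51e-06 to 0.817. With single libraries left out the number was 0 to 1 in this comparison, the 1 being without Control_6w replicate 3.

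Signs changed as follows with the 3 libraries left out together. At 1 day Fos was at -0.12, Fosb at -0.36, Egr3 at -0.093, Nr4a1 at -0.87 and Ier2 at -0.21, and at 6 weeks Fos was at -0.20 and Junb at -0.017. Jun was at 0.047 between the controls, Junb at -0.076 between the irradiated groups, and the change in effect of Fos was -0.084. With library totals Ier2 was at 0.13 at 6 weeks, and with limma-voom the changes in effect of Fos and Fosb were -0.14 and -1.46.

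With single libraries left out, the log2 fold changes that crossed 0 ran at 1 day from -0.11 to 0.82 for Fos, -0.36 to 2.34 for Fosb, -0.39 to 0.27 for Jun, -0.089 to 0.32 for Egr3, -0.86 to 0.77 for Nr4a1 and -0.24 to 0.21 for Ier2. At 6 weeks they ran from -0.21 to 0.81 for Fos, -0.53 to 0.47 for Egr3 and -0.32 to 0.086 for Ier2. Between the controls they ran from -0.37 to 0.29 for Jun, -0.071 to 1.501 for Junb and -0.64 to 0.25 for Nr4a1, and between the irradiated groups from -0.23 to 0.38 for Junb and -0.42 to 1.10 for Nr4a1. The change in effect ran from -0.69 to 0.65 for Fos, -1.85 to 0.85 for Fosb, -1.32 to 0.25 for Junb, -0.65 to 0.34 for Egr3, -0.19 to 1.44 for Nr4a1 and -0.34 to 0.12 for Ier2. Atf3 from IRR_1d to IRR_6w ran from 2.56 to 3.52.

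Over all genes, 4 were called at 1 day, 41 at 6 weeks, 0 between the controls, 6 between the irradiated groups and 0 for the change in effect. With an unadjusted p these were 358, 871, 601, 617 and 458. Without a filter they were 8, 138, 6, 26 and 9, and with DESeq2 on all libraries 33, 344, 28, 148 and 42. DESeq2 on the 2 groups called 59, 358, 40 and 376 in the first 4. limma-voom called 0 at 1 day, 18 at 6 weeks and 10 between the irradiated groups. edgeR on the 2 groups called 0 at 1 day and 13 at 6 weeks, and library totals 83 at 6 weeks. With the 3 libraries left out, 180 were called at 6 weeks, 1 between the controls, 105 between the irradiated groups and 29 for the change in effect. With single libraries left out the counts ran from 0 to 11 at 1 day (11 without Control_6w replicate 3), 0 to 98 at 6 weeks (98 without IRR_6w replicate 1, 0 without Control_6w replicates 1 or 2 or IRR_6w replicates 3 or 4), 3 to 36 between the irradiated groups (36 without Control_6w replicate 3) and 0 to 3 for the change in effect.

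Same-numbered hearts did not deviate together, with correlations of -0.36 to 0.37, so the numbers are taken as names. With the replicate block 1 gene was called at 1 day and 15 at 6 weeks, 0 of the 10 genes in any comparison, Egr3 at 6 weeks was at -0.084, and the changes in effect of Fos, Fosb and Egr3 were -0.17, -0.50 and -0.31. Of the 45 pairs, 0 passed without the 2 farthest hearts and 8 as deviations from group means. Depth limits Fosb and Egr2, with 0 to 125 counts a library.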

Other observations

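The genes with the smallest p in the related lists that are not described above did not pass the edgeR threshold, and their values are given without explanation. Among the heat shock genes, Hsph1, an HSP70 exchange factor, was at 32.8 to 43.4 CPM in IRR_1d against 62.4 to 182 CPM in Control_1d (log2 fold change -1.65, SE 0.519, edgeR adjusted p = 1). It was at 170 to 718 CPM in IRR_6w, 3.14 above IRR_1d on the log2 scale (SE 0.534, edgeR adjusted p = 0.064). Hspb1, a small heat shock protein of muscle, and Hspe1, a mitochondrial chaperonin, had log2 fold changes of -1.35 and -0.68 in IRR_6w against Control_6w (edgeR adjusted p = 0.35 and 0.311).

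Among the clock genes, Per2, Per3 and Tef had log2 fold changes of 1.62, 1.11 and 0.94 at 1 day (edgeR adjusted p = 1 for each). From IRR_1d to IRR_6w, Per3 differed by -2.13 (SE 0.366, edgeR adjusted p = 0.064) and Tef by -1.41 (SE 0.29, edgeR adjusted p = 0.134). At 6 weeks Bhlhe40, a repressor of the clock that also responds to stress, stood at 0.89 on the log2 scale against its controls (SE 0.243, edgeR adjusted p = 0.162), and Cry1 differed by -0.80 (SE 0.285, edgeR adjusted p = 0.369).

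Among the p53 targets that missed the threshold, Cdkn1a, the cell cycle inhibitor p21, had a log2 fold change of 2.44 at 1 day and 1.77 at 6 weeks (edgeR adjusted p = 0.187 and 0.0698). Bax, which promotes apoptosis, had 2.15 and 1.33 (edgeR adjusted p = 0.31 and 0.153), and Tnfrsf10b, a TRAIL receptor, had 2.09 at 6 weeks (edgeR adjusted p = 0.0597). Of the other immediate early genes, Klf6 and Socs3 had -0.87 and 1.02 at 1 day (edgeR adjusted p = 1 for both).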
